A study of Mus musculus with 36 samples.

Results

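The receptors through which steroid and thyroid hormones act on the liver were examined for the histone mark H3K9me3 in mouse offspring. The set held 10 genes, namely Esr1, Esr2 and Gper1 (estrogen receptors), Pgr (progesterone receptor), Nr3c1 and Nr3c2 (glucocorticoid and mineralocorticoid receptors), Thra and Thrb (thyroid hormone receptors), and Esrra and Esrrg (estrogen-related receptors). Members were taken by gene symbol from 6 tables of H3K9me3 bins, the stretches of called peaks in which reads were counted. They accounted for 99 of 120683 bins in the control female table, 134 of 148133 in the control male table, and 94 to 144 bins in the other 4. The set was in part chosen by the values themselves, namely the authors' comparison of the ages in control females, in which Esr1 was seen to lose signal upstream. Nothing below tests that choice.

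H3K9me3 was profiled by ChIP-seq in bulk liver of male and female offspring of dams on a control (chow) diet or on a Western-style diet (maternal obesity, MO), at 3 weeks, before weaning, and at 8 weeks, after 5 weeks on chow. Each of the 8 groups held 4 ChIP libraries, 32 in all, beside 4 input libraries. All offspring, controls included, came from a floxed Reg3g colony on a C57BL/6J background and were Reg3g-fl/+ or Reg3g-fl/fl, with no Cre named. Each table joined a pair of these groups: control mice at both ages, or control and MO mice at 1 age, for each sex. The tables give 1 average level per bin over the libraries they join, so no value here has a replicate error, no test was possible, and every difference below is a description of averages. The total count per library is not in the tables, so the counts behind each value, and their counting error, could not be computed from them. The tables hold no expression values, so the labelled tissue could not be checked against its marker genes.

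Steroid and thyroid hormone receptors are mostly nuclear proteins that bind DNA and switch genes on or off when their hormone arrives, whereas Gper1 is a G protein-coupled receptor at membranes. In liver, the estrogen receptor alpha encoded by Esr1 and the glucocorticoid receptor encoded by Nr3c1 act on lipid and glucose metabolism, and the thyroid receptor beta encoded by Thrb on cholesterol handling. Esrra and Esrrg have no known natural steroid ligand and act on mitochondrial and energy genes. H3K9me3 is a mark of compacted, silent chromatin that covers repeats and transposable elements and can also lie over genes.

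The sequences of the bins on which the results turn are printed here to show what kind of DNA lay in them. The levels are averages over ChIP libraries with no input value beside them. Input reads at these sequences could therefore not be compared, and how reads map to repeated DNA was not examined. Each is the central stretch of 200 bases of a bin, read 5′ to 3′ on the plus strand of mm10/GRCm38, with no annotated exon in it and with CpG dinucleotides, the sites of DNA methylation, in capitals. The stretches of Esr1 (chr10:4601818-4602017, upstream), Pgr (chr9:8976699-8976898, downstream), Thrb (chr14:17910568-17910767, intron) and Esrrg (chr1:187619524-187619723, intron) were short units repeated head to tail.

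Esr1 upstream: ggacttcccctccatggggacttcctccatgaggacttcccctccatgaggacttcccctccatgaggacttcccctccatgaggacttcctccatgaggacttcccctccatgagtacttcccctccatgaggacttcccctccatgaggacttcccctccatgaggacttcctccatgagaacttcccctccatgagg
Pgr downstream: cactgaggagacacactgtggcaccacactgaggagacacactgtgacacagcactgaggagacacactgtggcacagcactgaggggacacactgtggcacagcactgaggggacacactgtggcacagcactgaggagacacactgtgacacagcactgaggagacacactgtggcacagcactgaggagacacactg
Thrb intron: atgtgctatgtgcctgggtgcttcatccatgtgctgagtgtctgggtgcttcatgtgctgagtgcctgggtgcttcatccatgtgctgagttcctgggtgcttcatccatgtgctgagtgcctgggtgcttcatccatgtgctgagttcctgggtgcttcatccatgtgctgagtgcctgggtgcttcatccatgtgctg
Esrrg intron: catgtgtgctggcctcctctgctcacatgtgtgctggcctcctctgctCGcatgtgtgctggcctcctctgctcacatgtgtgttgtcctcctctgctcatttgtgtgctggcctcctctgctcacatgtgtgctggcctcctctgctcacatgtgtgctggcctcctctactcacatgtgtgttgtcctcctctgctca

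Laid over itself with a shift, the Pgr stretch matched at 95.4% of bases for a shift of 26 bases, the Esrrg stretch at 92% for 25 bases, the Esr1 stretch at 88.1% for 66 bases and the Thrb stretch at 86% for 28 bases. None of the Esr1, Thrb and Esrrg stretches was soft-masked as a repeat in the genome sequence (0% of bases each), and 22% of the Pgr stretch was. A match of at least 75% at some shift of 5 to 80 bases was found in 3 of 97 receptor bins of the control female table and in 5 of 125 of the control male table, against 1.22% and 1.18% of all bins on the same chromosomes. With so few bins this is a description of single sites. Most of the other stretches shown come from the bin of their gene with the highest or the lowest relative difference between ages in 1 sex. The stretches of Thrb (chr14:17445831-17446030) and Nr3c2 (chr8:76468247-76468446) were soft-masked over 100% of bases, those of Esr1 (chr10:4636469-4636668) and Esrrg (chr1:187600861-187601060) over 74% and 57%, and those of Thrb (chr14:18053153-18053352) and Esr2 (chr12:76182285-76182484) over 42% and 13.5%. The stretch before Thra (chr11:98738786-98738985) was chosen as a promoter stretch free of exons, and was 22% soft-masked.

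Nr3c2 distal: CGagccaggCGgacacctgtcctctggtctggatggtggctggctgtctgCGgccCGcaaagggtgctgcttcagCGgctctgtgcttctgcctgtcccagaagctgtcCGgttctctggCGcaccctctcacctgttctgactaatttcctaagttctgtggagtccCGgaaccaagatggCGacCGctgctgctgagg
Thrb distal, upstream: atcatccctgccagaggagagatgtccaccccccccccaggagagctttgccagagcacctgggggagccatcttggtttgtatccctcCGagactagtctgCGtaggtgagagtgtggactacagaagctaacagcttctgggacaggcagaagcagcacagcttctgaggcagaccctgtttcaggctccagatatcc
Thrb distal, downstream: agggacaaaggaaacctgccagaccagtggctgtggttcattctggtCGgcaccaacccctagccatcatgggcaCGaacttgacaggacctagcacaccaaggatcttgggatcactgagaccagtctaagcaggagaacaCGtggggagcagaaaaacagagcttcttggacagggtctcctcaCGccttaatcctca
Esrrg distal: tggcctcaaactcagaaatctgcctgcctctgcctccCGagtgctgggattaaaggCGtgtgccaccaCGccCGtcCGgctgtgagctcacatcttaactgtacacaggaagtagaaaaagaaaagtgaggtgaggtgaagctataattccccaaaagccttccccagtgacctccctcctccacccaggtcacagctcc
Esr1 intron: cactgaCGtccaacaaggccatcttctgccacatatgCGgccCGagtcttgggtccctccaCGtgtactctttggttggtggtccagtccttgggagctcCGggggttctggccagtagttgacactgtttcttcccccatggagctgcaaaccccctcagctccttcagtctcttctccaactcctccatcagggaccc
Esr2 upstream: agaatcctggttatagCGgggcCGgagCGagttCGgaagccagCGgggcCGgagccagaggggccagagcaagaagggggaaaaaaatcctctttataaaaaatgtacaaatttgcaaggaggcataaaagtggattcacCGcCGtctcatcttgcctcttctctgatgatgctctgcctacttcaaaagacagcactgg
Thra promoter: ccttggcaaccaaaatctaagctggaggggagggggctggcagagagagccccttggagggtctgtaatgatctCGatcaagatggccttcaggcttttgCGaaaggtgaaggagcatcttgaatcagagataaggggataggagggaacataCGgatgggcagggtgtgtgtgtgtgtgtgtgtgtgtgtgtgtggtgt

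Listed bins were spread unevenly over the receptors. Nr3c2 had the most in every table, 36 to 52 bins, followed by Esrrg (15 to 26) and Thrb (16 to 24). Esr1 had 6 to 11, Esr2 4 to 12, Thra 3 to 7, Pgr 4 to 6, Gper1 2 to 6, Nr3c1 1 to 4 and Esrra 1. The median gene with a bin had 3 or 4, depending on the table. Nr3c2 thus had at least as many bins as 98.9% to 99.4% of all genes with a bin, whereas Esrra matched or exceeded only 17.1% to 24.8%.

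**Figure D1:**
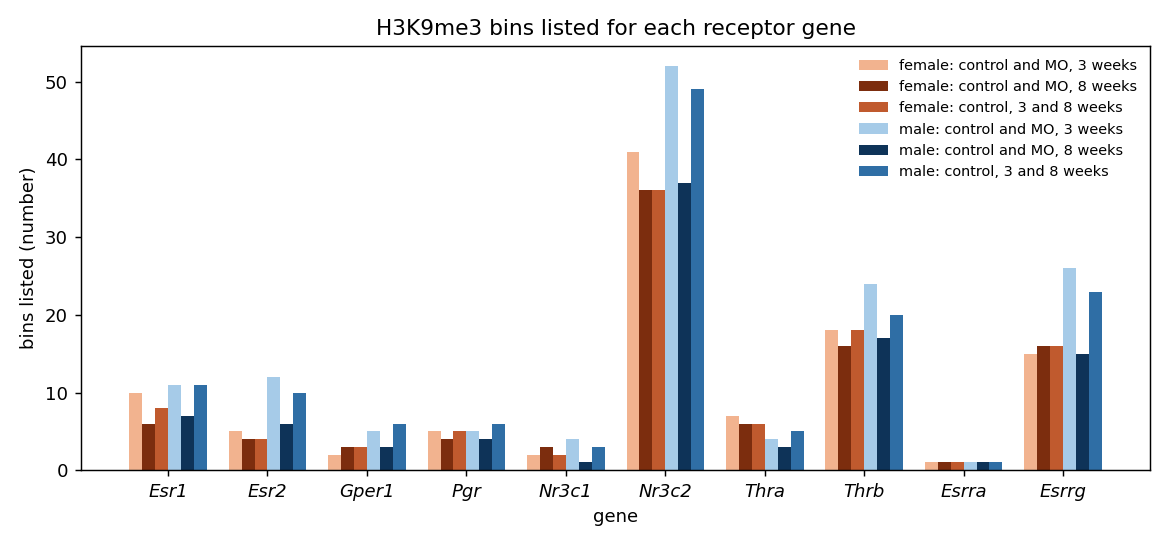
Number of H3K9me3 bins listed for each receptor gene (vertical axis) in each of the 6 tables (bars), with females in orange and males in blue. Nr3c2 stands highest with 36 to 52 bins, and Esrra had 1 bin in every table.

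For Nr3c2 and Thrb most of the bins lay outside the gene itself. Bins are credited to the gene of the nearest transcript start, and in control females 40 of the 99 receptor bins overlapped the gene they were credited to (61 of 134 in control males). For Nr3c2 this was 10 of 36 bins in females and 18 of 49 in males, and its farthest bin lay 724 kb from the start site. In females, 22 of the Nr3c2 bins lay in the body of another transcript. For Thrb, 4 of 18 female and 4 of 20 male bins overlapped the gene. For Esr1, by contrast, 7 of 8 female and 9 of 11 male bins did. A distant bin is therefore near a receptor gene on the chromosome, and nothing in the tables ties it to that gene. The share of bins that overlap their gene was not computed over all bins, so this layout is not shown to be particular to the receptors.

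**Figure D2:**
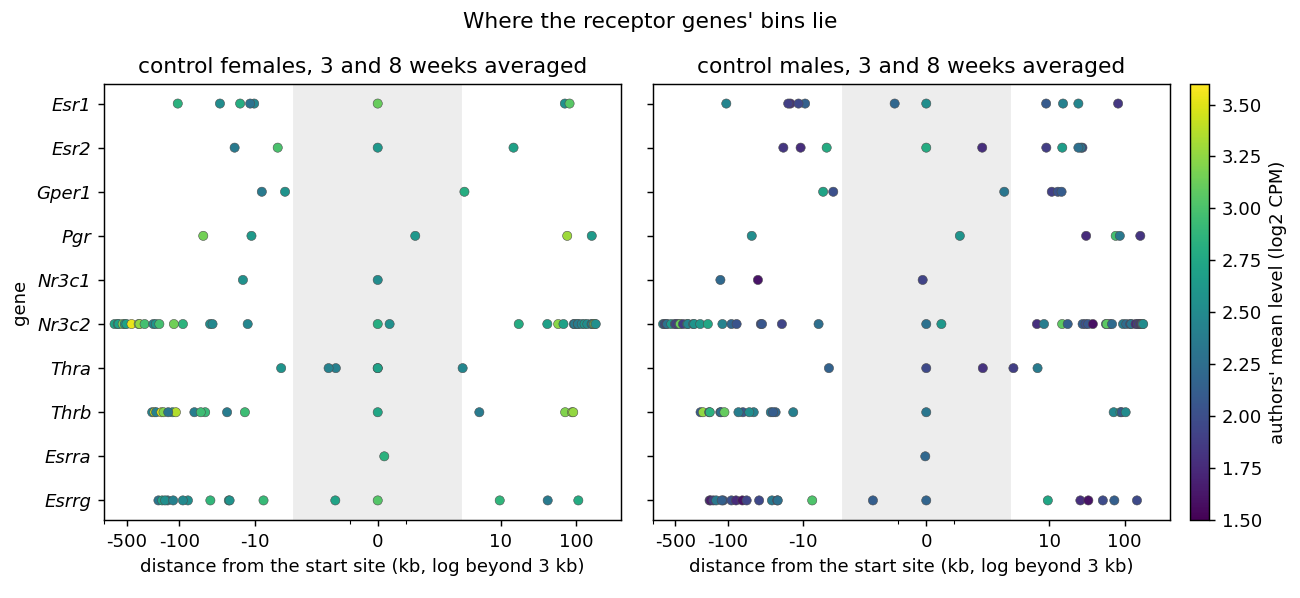
Distance of each receptor bin from the start site of the nearest transcript (horizontal axis, kb, logarithmic beyond 3 kb, upstream to the left) in control females and control males, coloured by the authors' mean level in log2 CPM. The grey band marks promoters; Nr3c2 reaches 724 kb upstream, and the bins of Gper1, Thra and Esrra stay close to their start sites.

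Every receptor had a bin annotated to a promoter, that is within 3 kb of a transcript start, in the 8-week female table and in all 3 male tables, and 9 of 10 did in the other 2 female tables. Among all genes with a bin, 74.4% to 77.5% had one in a promoter. As a share of bins, however, promoters held 14.1% of the receptor bins in control females and 11.2% in control males, against 21.1% and 20.3% of all bins. Gene bodies held 53.5% and 59.7% of receptor bins, against 39.4% and 41.6% of all bins. These shares count the body of any transcript, not only that of the receptor. Control females had 53 such receptor bins, and 25 lay outside the receptor gene, in another transcript. For control males the corresponding counts were 80 and 33. The shares therefore do not show the mark to be concentrated within the receptor genes themselves. Nr3c2 alone contributed 36 and 49 of the receptor bins.

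Levels are given as log2 CPM, the log2 of read counts scaled to library size, averaged by the authors over the libraries of a table. The median over receptor bins was 2.69 in control females and 2.12 in control males, against 2.65 and 2.10 for all bins, so the receptors as a set sat near the middle of the mark's range. The Thrb bins had medians of 2.93 and 2.38 in control females and males, with the typical bin at percentile 80.1 and 77.8 of all bins, while the Thra bins had medians of 2.53 and 1.97, at percentile 30.7 and 32.6. Over the 6 tables the typical bin ran from percentile 66.4 to 82.3 for Thrb and from 26.0 to 55.2 for Thra. They were not the extremes in every table, since in control males Pgr stood at 80.8 and Nr3c1 at 26.8. In receptor bins with at least 50% of bases soft-masked as repeats the median was 2.93 in control females and 2.28 in males, against 2.59 and 2.10 in the other receptor bins. All bins showed the same order (2.81 and 2.62 in females, 2.24 and 2.07 in males). Repeat-rich bins made up 30.3% and 34.3% of the receptor bins, against 23.6% and 21.3% of all bins.

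Ages were compared within a sex by taking the level in the 8-week table minus that in the 3-week table at the same bin, with control and MO libraries averaged in both. Mice of the 2 ages also differed in diet at the time of collection and may differ in how they were processed, which cannot be told apart from age. The tables were normalized separately, and all shared bins were higher at 8 weeks by a median of 0.23 log2 units in females (76657 bins) and 0.63 in males (69096 bins). A relative difference below is therefore the difference minus this median, and a bin was counted when it passed 0.5 log2 units. In bulk liver, a change in the share of a cell type and a change of the mark within cells cannot be told apart.

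As a set the receptors moved with the genome. Without the adjustment, the 8-week level exceeded the 3-week level by 0.5 or more at 15 of 65 female receptor bins and at 43 of 64 male ones, against 16.6% and 68.1% of all shared bins. None was lower by that much, against 0.291% of all bins in females and 0.00145% in males. After it, 3 of 65 female bins were higher and 2 lower, against 4.57% and 2.99% of all bins. In males 4 of 64 were higher and 3 lower, against 5.48% and 3.49%. The median relative difference over the receptor bins was 0.03 in females and 0.01 in males. Centring within deciles of level, to allow for larger differences at stronger bins, left 0 higher and 2 lower in females, against 3.24% and 2.42% of all bins, and 2 higher and 4 lower in males, against 4.61% and 3.14%. Of the 7 higher bins this left the male Esrrg bin, with the male Nr3c1 promoter bin joining it. The single bins described below thus lie in the tails of a set that as a whole resembled all bins.

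**Figure D3:**
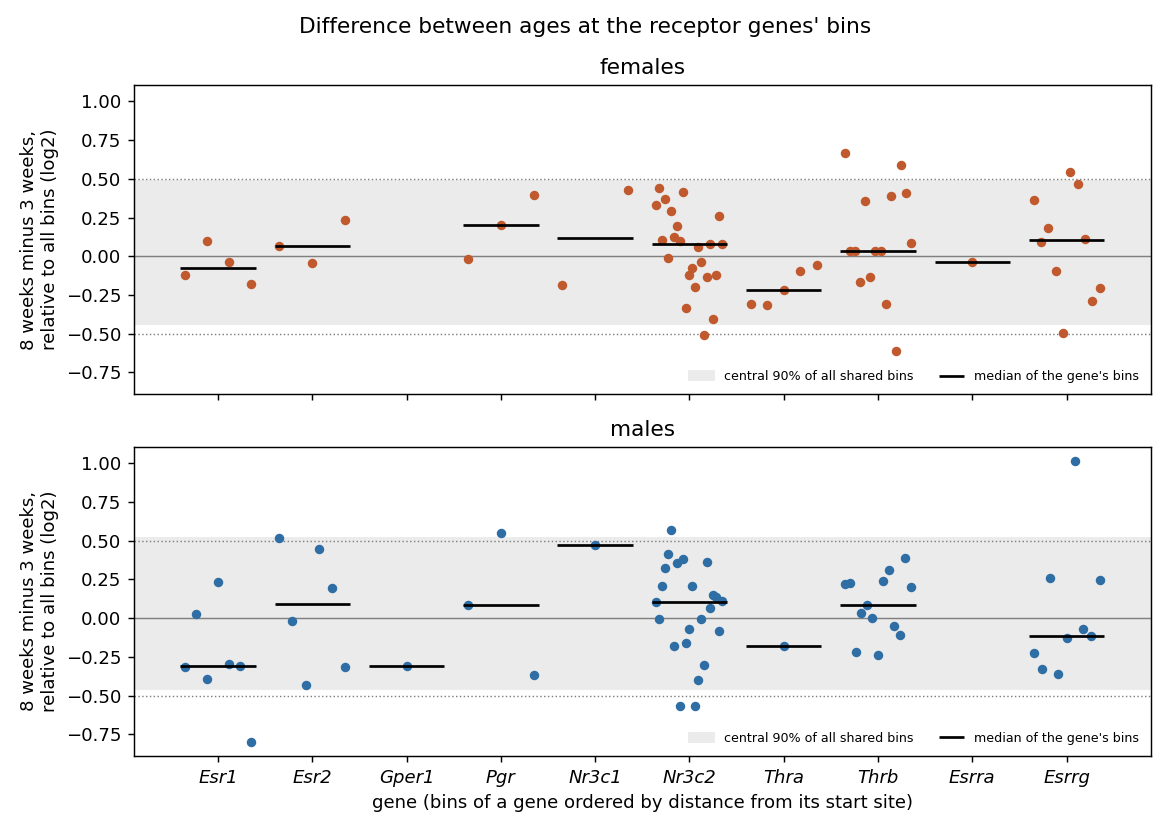
Relative difference between 8 and 3 weeks (vertical axis, log2 units, after subtraction of the median of all shared bins) for each receptor bin, as points ordered within a gene by distance from the start site, in females and males. The grey band holds the central 90% of all shared bins and the black bars are the medians per gene; the highest point is an Esrrg bin in males at 1.02 and the lowest an Esr1 bin in males at -0.80.

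Esr1, the main estrogen receptor of liver (chr10:4611593-5005614, plus strand, a gene of 394 kb), had its highest level at a promoter inside the gene. That bin (chr10:4712477-4712977) reached 3.11 in control females and 2.85 in the 3-week female table. The 8-week female table listed the neighbouring bin of the same peak at 2.88. In males the promoter bin (chr10:4712436-4712936) was at 2.16 at 3 weeks and 3.02 at 8 weeks, a relative difference of 0.23. Of the 7 shared male Esr1 bins, this one included, 5 were below the common shift. The lowest was a repeat-rich bin in the first intron (chr10:4636319-4636819), at 2.54 at 3 weeks and 2.37 at 8 weeks. Its relative difference of -0.80 was the lowest of any receptor bin in either sex and stood at percentile 0.191 of all male bins. Females had no shared bin at that place, where an overlapping bin (chr10:4636412-4636526) was listed at 2.22 at 3 weeks and none at 8 weeks.

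The Esr1 peak upstream of the gene, which carries the head-to-tail repeat printed above, could not be compared between ages by subtracting levels. The authors' own comparison of the ages was not used here. In females the peak spans chr10:4600952-4602811, and each table listed another of its bins. The level was 2.46 in control females 10.1 kb before the start site, 2.54 at 3 weeks 9.64 kb before it, and 2.53 at 8 weeks 8.78 kb before it. In males the peak was listed at 2.15 in the control table and at 2.16 at 3 weeks, and not at 8 weeks. At the 4 Esr1 bins shared by the female ages, all in introns, the relative difference ran from -0.18 to 0.10, well inside the central 90% of all female bins (-0.44 to 0.49).

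Esr2, the second nuclear estrogen receptor (chr12:76120419-76177259, minus strand), had its largest male difference from the common shift at a bin 4.88 kb upstream of its start. This bin (chr12:76182135-76182635) was at 2.51 at 3 weeks, below the start-site bin and the exonic bin described next, and at 3.66 at 8 weeks, a relative difference of 0.52. Centred within deciles of level it was 0.29, below the 0.498 of another male Esr2 bin (start 76142986) and smaller in size than the -0.51 of the exonic bin. In females the overlapping bin (chr12:76182198-76182698) was at 2.66 and 2.95, a relative difference of 0.07. The bin over the Esr2 start site, of 277 bases in females and 496 in males, was at 2.38 and 2.57 in females and at 2.63 and 3.25 in males. It had relative differences of -0.04 and -0.02, or 0.04 and -0.25 when centred within deciles of level. An exonic bin (chr12:76152462-76152962 in females), 14.8 kb from the start of the nearest transcript, went in opposite directions relative to the shift, at 0.24 in females (2.53 and 2.99) and -0.43 in males (2.73 and 2.93).

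Gper1, the membrane estrogen receptor (chr5:139423151-139427800, plus strand), was the receptor most fully covered by peaks. Female peaks covered 100% of its 4.65 kb and male peaks 90.6%. In females it lay within a single peak of 15353 bases, and another of 14644 bases ended before its start site. Peaks of 10 kb or more held 1.2% of all bins in the control female table. Its levels varied with table and sex. The 2 Gper1 bins of the 3-week female table were at 2.08 and 2.10, and the 3 bins of the 8-week table ran from 2.20 to 2.83. In males the 5 bins of the 3-week table ran from 1.91 to 2.39 and the 3 of the 8-week table from 2.35 to 2.78, and the highest in the control table, at 2.72, stood at percentile 94.0 of all bins. Both female Gper1 peaks listed at both ages, of 15353 and 1016 bases, had a different bin listed at each, so females had no shared Gper1 bin. Males had 1, in an intron of an overlapping transcript 3.99 kb upstream, at 2.02 and 2.35 (relative difference -0.31).

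Pgr, the progesterone receptor (chr9:8899833-8968611, plus strand), was marked most strongly outside the gene. The tandem repeat 76.1 kb beyond a start site was at 2.91 at 3 weeks and 3.53 at 8 weeks in females (chr9:8976608-8976991), and at 2.60 and 3.78 in males (chr9:8976565-8976999). The relative differences were 0.40 and 0.55, above the common shift in both sexes, and 0.18 and 0.32 when centred within deciles of level. A bin 48.1 kb upstream of Pgr followed all bins, with relative differences of -0.02 in females and 0.09 in males. Within the Pgr promoter the female bin 0.845 kb after a start site was at 2.38 and 2.81. The male promoter peak was listed at 2.12 at 3 weeks and at 2.85 at 8 weeks, but in different bins.

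Nr3c1, the glucocorticoid receptor (chr18:39410545-39519421, minus strand), carried the mark at its promoter in all 6 tables. In females the bin at chr18:39489032-39489532 was at 2.46 at 3 weeks and 3.11 at 8 weeks. In males the bin at chr18:39489929-39490429 was at 1.80 and 2.90. The female and male bins do not overlap, so each sex was read at different DNA of the promoter. Their relative differences were 0.43 and 0.47, at percentile 92.8 and 93.4 of all bins of the sex, and neither passed 0.5. Centred within deciles of level they were 0.39 and 0.52. These promoter bins were rich in G and C (72.7% and 72.9%, against medians of 53.7% and 53.5% over all bins of the 3-week tables). The control tables listed other bins of the promoter peak, at 2.51 in females and 1.92 in males (percentile 28.6 and 26.8). The other Nr3c1 bins lay upstream, the nearest in females 14.3 kb away at 2.33 and 2.38. At 8 weeks the promoter bin was the only Nr3c1 bin in the male table.

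Nr3c2, the mineralocorticoid receptor (chr8:76899442-77245012, plus strand), had 23 shared bins in each sex, with median relative differences of 0.08 and 0.10. The strongest at 8 weeks and in the control tables lay 431 kb upstream in DNA masked over its full length. At 3 weeks another Nr3c2 bin was higher, at 3.33 in females and 2.86 in males. The bin 431 kb upstream was at 2.75 at 3 weeks and 3.95 at 8 weeks in males (chr8:76468098-76468596), the highest level of any receptor bin, and at 3.07 and 3.59 in females (chr8:76468184-76468586). The relative differences were 0.57 and 0.29, and they were 0.33 and 0.08 when centred within deciles of level. A male bin 289 kb upstream (chr8:76610200-76610574) went the other way, at 2.72 and 2.79 (-0.57). The promoter bin of males 0.543 kb from a start site (chr8:76908815-76909315) was nearly level at 2.60 and 2.66, a relative difference of -0.57, whereas a male bin 56.5 kb from the start (chr8:77184500-77184737) was at 1.83 and 2.82 (0.36). A bin in the last intron (chr8:77223289-77223515) was the lowest of the female Nr3c2 bins, at 2.43 and 2.15 (-0.51), while the overlapping male bin was at 2.12 and 2.90 (0.15). Centred within deciles of level it was at -0.42, and the lowest female bin was then one 118 kb upstream at -0.54 (chr8:76780946-76781446). In the peak at the first Nr3c2 start site, the listed female bin was at 2.32 at 3 weeks, 2.07 at 8 weeks and 2.81 in the control table, each time another bin.

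Thra, the thyroid hormone receptor alpha (chr11:98740638-98769006, plus strand), was covered over 72% of its length by female peaks and 77.8% by male peaks. In males 1 peak of 13148 bases spanned the first part of the gene. In females all 5 shared Thra bins were below the common shift, with relative differences from -0.32 to -0.05. Centred within deciles of level, 4 of the 5 were below and the bin starting at 98756700 was at 0.03. The bin 1.76 kb before an internal start site (chr11:98751325-98751825) was at 2.47 at 3 weeks and 2.38 at 8 weeks, and the bin in the printed promoter sequence at 2.40 and 2.41. The bin over that internal start site (chr11:98753215-98753715) was at 2.55 and 2.68, and at 2.70 in the control table. Each lies inside the central 90% of all bins. The single shared male bin, in exon sequence 6.98 kb from the nearest start (chr11:98760562-98761062), was also below, at 2.44 and 2.90 (-0.18).

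Thrb, the thyroid hormone receptor beta that predominates in liver (chr14:17660261-18038090, plus strand), was the opposite of Thra in layout. Peaks covered only 0.7% of the gene in females and 0.78% in males, and most of its bins lay in intergenic DNA on either side. The strongest at 8 weeks in both sexes was 214 kb upstream. In females other Thrb bins were higher at 3 weeks (3.08) and in the control table (3.48). The bin 214 kb upstream overlapped between the sexes, at 3.00 at 3 weeks and 3.89 at 8 weeks in females (chr14:17445681-17446181) and at 3.03 and 3.88 in males (chr14:17445673-17446173). The raw differences of 0.89 and 0.85 were alike, but the relative ones were 0.66 and 0.22, since the common shift was larger in males. Centred within deciles of level they were 0.45 and -0.02. A bin 88.1 kb downstream of the nearest start was at 2.73 and 3.55 in females and, in the overlapping male bin, at 2.42 and 3.44 (relative differences 0.59 and 0.39, or 0.38 and 0.15 centred within deciles). Nearer the gene, 71.5 kb from the same start, the bin at chr14:18053023-18053483 was lower at 8 weeks in females, at 3.08 and 2.69. That relative difference of -0.61 stood at percentile 0.974, while the overlapping male bin was at 2.40 and 2.92 (-0.11). The Thrb promoter bin of females (chr14:17660215-17660715) was at 2.49 and 3.11, a relative difference of 0.39. The intronic tandem repeat was at 2.86 and 2.96 in females and 2.43 and 3.06 in males.

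Esrra, the estrogen-related receptor alpha (chr19:6910977-6921813, minus strand), had 1 peak over its start site in each sex, of 1608 bases in females and 2346 in males. The female bin (chr19:6920316-6920816) was at 2.49 at 3 weeks, 2.68 at 8 weeks and 2.84 in the control table, and kept pace with all bins (-0.04). In males the listed Esrra bin moved along the peak from table to table, at 2.18 at 3 weeks and 2.53 at 8 weeks, so no difference was taken.

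Esrrg, the estrogen-related receptor gamma (chr1:187608791-188214885, plus strand), held the largest difference of the whole set. A bin 7.62 kb upstream of its start was at 2.47 at 3 weeks and 3.25 at 8 weeks in females (chr1:187600754-187601168). In males the overlapping bin (chr1:187600766-187601202) was at 2.24 and 3.89. The relative differences were 0.55 and 1.02, the latter at percentile 99.8 of all male bins, and this was the only receptor site past 0.5 in both sexes. It was 1 of 33 receptor places with a difference in both sexes, against 615 of 35745 such places over all bins. Centred within deciles of level the Esrrg values were 0.46 and 0.78, and no receptor site passed 0.5 in both. The control tables gave 2.92 for females and 3.01 for males at the same bins. The neighbouring female bin 22.0 kb upstream went the other way, at 2.73 and 2.46 (-0.496, just short of the counted size). At the internal Esrrg promoter the bin was at 2.42 and 3.11 in females (0.47) and at 2.16 and 2.72 in males (-0.07). The tandem repeat in the Esrrg intron was at 2.57 and 2.91 in females. In males it was listed at 3.30 at 8 weeks, whereas the 3-week table listed the next bin of the same peak.

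**Figure D4:**
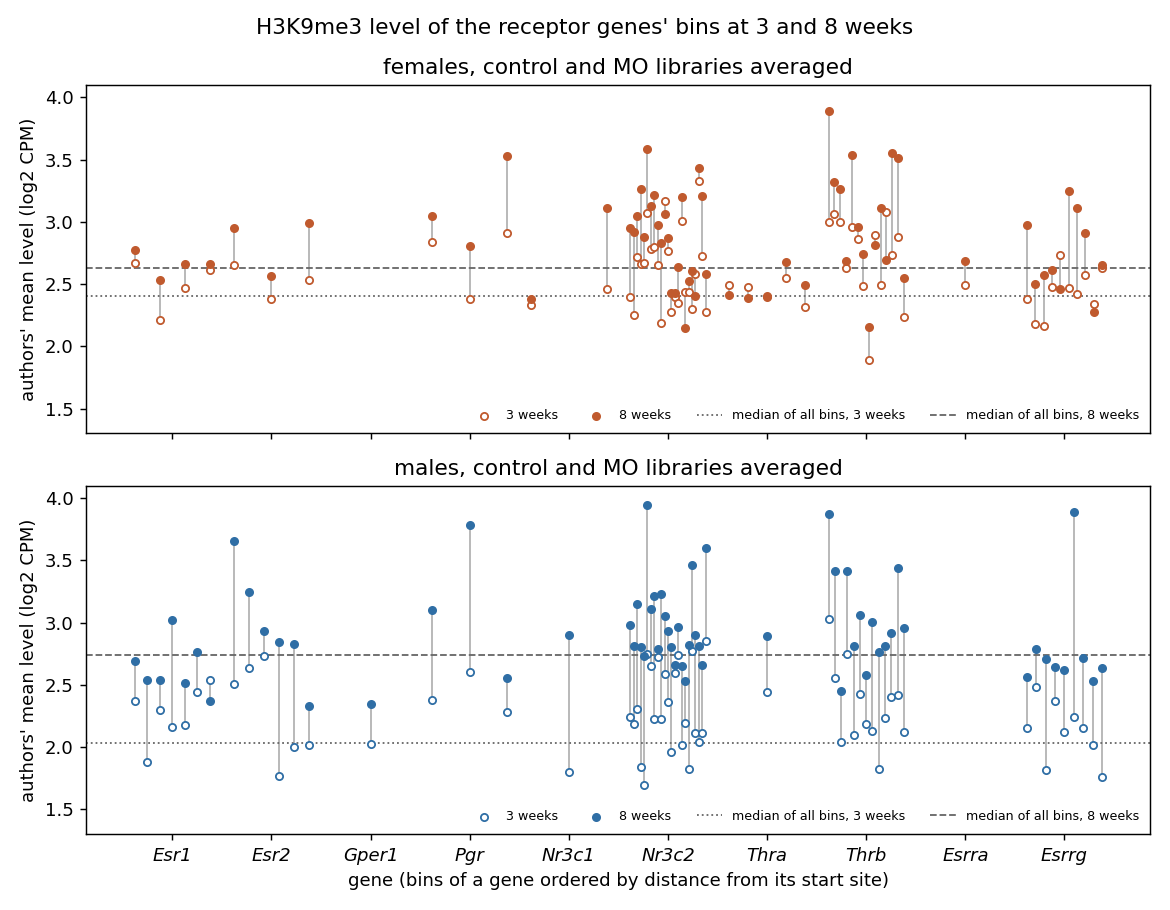
Authors' mean level in log2 CPM (vertical axis) at 3 weeks (open points) and 8 weeks (filled points) for each receptor bin listed at both ages, joined by a line, in females and males. The dotted and dashed lines are the medians of all bins at 3 and 8 weeks, and the strongest bins at 8 weeks are those of Nr3c2 (3.95), Esrrg (3.89) and Thrb (3.88) in males and of Thrb (3.89) in females.

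Across receptors, repeat content went with the direction of the relative difference as it did in the genome. Among female receptor bins at least 50% soft-masked, 15 of 23 were above the common shift, with a median of 0.08, against 20 of 42 of the other bins (median -0.02). In males these were 15 of 24 (median 0.10) and 18 of 40 (median -0.01). Over all shared bins the shares above were 63.9% and 44.3% in females and 59.4% and 46.2% in males. Pearson's r between masked share and relative difference was 0.25 over 65 receptor bins in females and 0.21 over 64 in males, and 0.24 and 0.17 over all bins. Bins of a sex share their libraries and are not replicates, and part of what was seen may follow level, since repeat-rich bins were also the stronger ones. That part was not tested.

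**Figure D5:**
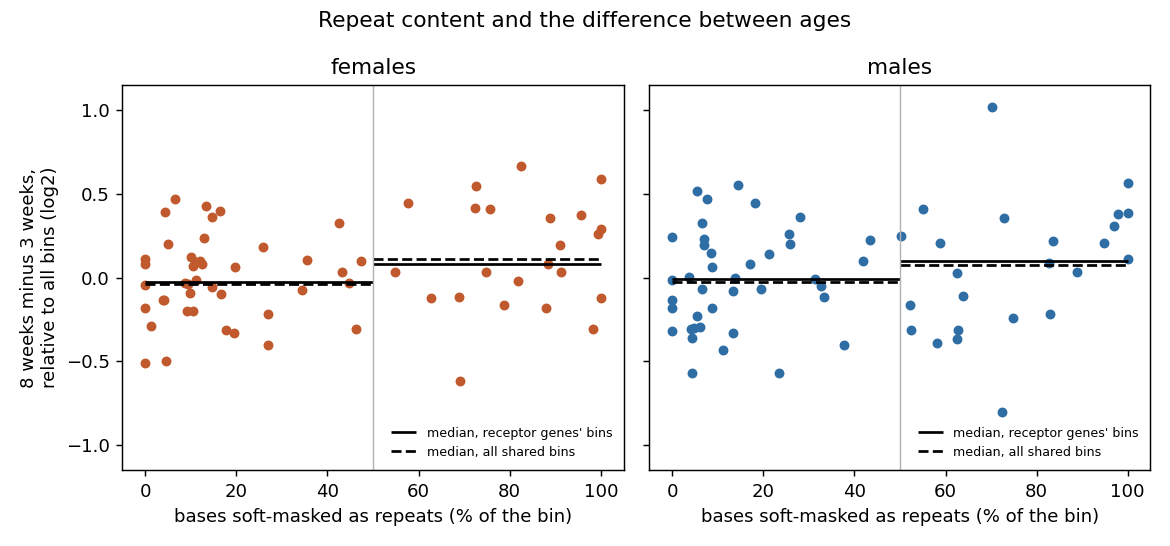
Share of bases soft-masked as repeats (horizontal axis, % of the bin) against the relative difference between 8 and 3 weeks (vertical axis, log2 units) for receptor bins in females and males. Solid lines are the medians of receptor bins below and above 50%, and dashed lines those of all shared bins. Medians were 0.08 and 0.10 for repeat-rich receptor bins and -0.02 and -0.01 for the others, in females and males.

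The sexes were compared by position. In the control tables, 66 of the 99 female receptor bins overlapped a male receptor bin and 66 of the 134 male bins a female one (66.7% and 49.3%), against 56.7% and 46.2% for all bins. At 33 places with a difference between ages in both sexes, 14 were above the common shift in both, 4 below it in both, and the others were split. The same side was thus seen at 54.5% of these places, against 63.9% of all 35745 places, of which 38.3% were above in both and 25.6% below in both. Pearson's r of the relative differences was 0.38 and Spearman's rho 0.39 over these places. Over all such places the values were 0.44 and 0.41.

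Receptor peaks left the tables between the ages about as often as others. In females 82 of 106 receptor peaks of the 3-week table were also in the 8-week table (77.4%, against 73% of all peaks). In males it was 85 of 144 (59%, against 60.7%). Few peaks were listed at 8 weeks only, since 86.3% of the female and 90.4% of the male receptor peaks of the 8-week tables were also listed at 3 weeks, against 88.1% and 94.7% of all peaks. In males Esrrg had 14 peaks in the 3-week table only, 3 in the 8-week table only and 12 in both. Esr1 had 4 peaks at 3 weeks only in each sex and none at 8 weeks only, of 6 and 7 listed at 8 weeks in females and males, too few to be set apart from the shares of all peaks. Absence from a table says that no bin of the peak was listed, since no value is given for it.

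Other genes of hormone action were examined as a list of 36, which held further receptors, coregulators, chaperones, hormone-converting enzymes, transporters and target genes. Between 32 and 35 of them had a bin in each table, and 25 to 27 had one in a promoter. Serpina7, which encodes thyroxine-binding globulin, had none in any table. Their median relative difference between ages was -0.03 in both sexes, over 156 female and 125 male bins. In females 4 bins were higher by 0.5 or more and 4 lower (2.56% each, beside the 4.57% and 2.99% of all bins). In males 6 were higher and 3 lower (4.8% and 2.4%, beside the 5.48% and 3.49% of all bins given above).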

How the data were processed

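H3K9me3 ChIP-seq of mouse liver was analysed from 6 deposited tables, 1 per comparison. As described in the methods, reads were aligned by the authors to mm10/GRCm38 with BWA. Broad peaks came from MACS2, and consensus peaks were merged within each sex and divided into bins, with reads counted by featureCounts and bins annotated by ChIPseeker. The level used here is the deposited log2 CPM, which the authors' software (edgeR) averaged over the libraries of a table, so it has no SD and no n. Each table lists 1 bin per peak, and how it was chosen is not given in the sources used here. Bins were 13 to 501 bases wide. The tables also hold the authors' own fold change, p-value and adjusted p-value for each bin, which were not used. There were 0 columns of values per library, so no test was run and none of the planned count tests applied.

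Members and lists were chosen with earlier results of these data known. All 10 members were named, each by its bin with the highest level, the bin nearest a start site and the bin with the largest relative difference between ages in each sex. Other bins named were chosen after their values were seen, as were the splits by repeat content and by tandem repetition. Bins with identical coordinates in the 3- and 8-week tables of a sex were subtracted. Gene spans came from GENCODE and sequences and soft-masking from the RefSeq GRCm38 genome, in which all 414426 distinct bins lay within their chromosomes. Scripts were tested on simulated data. An estimate of MO minus control was planned from the 3 tables of a sex, on condition that its median over all bins was within 0.2 of 0, which was not met. Computations used Python, numpy, pandas and scipy.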

Additional observations from a re-analysis of the deposited data

How the results depend on the processing

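No paired analysis was possible because the tables hold averages over libraries, and for the same reason no replicate could be left out. The estimate of MO minus control was not given, since its median over all bins was -0.24 in females and 0.44 in males, and no threshold was tried on it. In the order female control, 3-week and 8-week table, then male control, 3-week and 8-week table, the receptor bins numbered 44, 48, 41, 66, 70 and 43 within 50 kb of a start site, and 51, 59, 52, 73, 80 and 56 at or above the table's median. Without intergenic bins the 8-week female count was 62. The median level over genes was 2.65, 2.40, 2.66, 2.12, 2.09 and 2.84, and without intergenic bins 2.63, 2.40, 2.65, 2.12, 2.04 and 2.78. With promoters of 1 kb the share in control males was 6.72%. The median difference between ages went from 0.26 to 0.033 in females and from 0.65 to 0.014 in males once the median of all bins was subtracted, and was 0.026 and -0.011 after centring within deciles of level, chosen after seeing the data for the counts. At 1 log2 unit, before any adjustment, 0 female and 9 male bins were higher. The share of all bins past that limit was not computed, so these counts do not set the receptors apart. After subtraction of the median, 3 female and 4 male bins were higher and 2 female and 3 male bins lower, and with decile centring 0 and 2 were higher and 2 and 4 lower. Among bins at or above both medians, 27 male bins were higher. The cause of these changes was not tested, apart from the smaller number of bins under a stricter limit. With a reciprocal overlap of 50% the median differences stayed at 0.26 and 0.65, and 53 female bins overlapped a male bin. The tables give no counts, so the depth behind each value could not be computed from them.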

Other observations

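The bin that stands for a peak was not fixed. Of the receptor peaks listed at both ages, 65 of the 82 female and 64 of the 85 male ones were represented by a single bin in both tables (79.3% and 75.3%), as were 74.9% and 71.4% of all such peaks. The remainder are left out of every difference above, and they include the upstream Esr1 peak in females and the Gper1 peak of 15353 bases in females.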
